A study of Mus musculus with 28 samples.

Results

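A set of 9 genes of the regulatory T cell programme is described here in CD4+ T cells sorted from mouse small-intestinal lamina propria: Foxp3, Ikzf2, Ikzf4, Nrp1, Il1rl1, Lrrc32, Gpr83, Klrg1 and Ebi3. They were chosen by symbol, and all 9 were found among the 25124 genes of the authors' expression table. The 28 libraries came from live CD45+ CD90.2+ TCRb+ CD4+ cells of T-bet-ZsGreen mice, which carry a fluorescent reporter of the transcription factor T-bet in every group. One set of mice was colonised under specific-pathogen-free (SPF) conditions and the other was germ-free (GF). Each set was given either aCD3, an antibody that binds the CD3 chains of the T cell receptor, or its isotype control. There were 6 SPF isotype libraries, 6 SPF aCD3 libraries, 10 GF isotype libraries and 6 GF aCD3 libraries, named below by the sex letter and number of their titles (F1, M1). Both sexes were equally present except in GF aCD3, with 1 female and 5 male libraries. No label ties a library to single or pooled animals or states the mice's age, so p-values measure the spread between these libraries. The gate took all CD4+ T cells and did not select regulatory T cells.

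Regulatory T cells are CD4+ T cells that restrain other immune cells, and in the gut they limit responses to food and to the flora. Their lineage depends on the forkhead transcription factor FOXP3. In the intestine, cells that carry Helios (Ikzf2), neuropilin-1 (Nrp1), GATA3 and the IL-33 receptor ST2 (Il1rl1) are commonly set apart from cells that depend on the flora. In bulk RNA of a mixed CD4+ sort, fewer cells of a type and less RNA per cell cannot be told apart, and none of the 8 other members belongs to regulatory T cells alone.

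Values are the authors' TPM, a gene's share of a library's reads after division by gene length, and the length used here was the span from first to last base, introns included. Whole reads could be recovered from them, and the libraries held 6765529 to 17860611 reads in genes. The 8 CD4+ T cell markers fixed for a check summed to 1862 to 2472 TPM in every library, without a gene at 0. Histone genes made up 24.1% to 27.1% of the TPM in SPF aCD3, against 4.31% to 7.30% in SPF isotype and 4.05% to 9.54% in GF isotype. In GF aCD3 they made up 23.4% to 26.3% in M1, M2 and M5 and 5.67% to 7.79% in F1, M3 and M4. The median gene of 12182 tested was 0.35 lower on the log2 scale in SPF aCD3 than in SPF isotype and 0.34 higher in GF aCD3 than in SPF aCD3. Where it matters, values rescaled to the median of ratios between libraries, which removes that shift, are given beside the deposited ones. The sample numbers in the column names were S1 to S12 for SPF libraries, S25 to S33 for 9 GF libraries and S48 to S54 for 7 GF libraries. What those numbers follow is not stated, and colonisation and number range cannot be told apart.

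Positions are those of the authors' table (mm10, RefSeq models), with the transcription factors first. Foxp3 (NM_001199348) spans chrX:7580483-7595243 on the plus strand. Its row overlaps the 3' part of the non-coding gene Flicr by 533 bases on the same strand. It also overlaps the neighbouring gene Ccdc22 by 1434 bases on the opposite strand, and whether reads were counted by strand is not stated. Ikzf2 (NM_011770) lies at chr1:69531210-69685960, minus strand, and Ikzf4 (NM_011772), which encodes Eos, at chr10:128630843-128645993, minus strand. Among the surface proteins, Nrp1 (NM_008737) lies at chr8:128359073-128505475, plus strand, and Il1rl1 (NM_010743) at chr1:40439629-40448411, plus strand. Lrrc32 (NM_001113379), which encodes the latent TGF-beta docking receptor GARP, lies at chr7:98494222-98501830, plus strand. Gpr83 (NM_001310734), a G protein-coupled receptor, lies at chr9:14860210-14870789, plus strand. Klrg1 (NM_016970), a C-type lectin inhibitory receptor that binds cadherins, lies at chr6:122270597-122282833, minus strand. Ebi3 (NM_015766), the beta subunit shared by the cytokines IL-27 and IL-35, lies at chr17:55952623-55957022, plus strand. Rows of other members were overlapped as well: that of Ebi3 by Gm16712 on the opposite strand, at a mean of 3.36 TPM over the 28 libraries beside 2.83 TPM for Ebi3, that of Nrp1 by Mir1903 on the same strand (4.56 TPM), and that of Ikzf4 by Gm26876 on the opposite strand (0.324 TPM). The part of these rows in the members' values was not tested.

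Promoter windows of 300 bases (250 before and 50 after the start) were read for 5 of the 9 members in RefSeq's GRCm38.p6 table: Foxp3, Nrp1, Il1rl1, Gpr83 and Ebi3. The 3 printed belong to Foxp3, to Nrp1, whose levels did not overlap between the 2 SPF groups, and to Il1rl1, which moved with Foxp3 between the GF number ranges. Capitals mark matches, on either strand, to GGAAA (the core read by NFAT), TTCNNNGAA (STAT), TGANTCA (AP-1), TGTGGT (RUNX) and TGTTTA (forkhead).
Foxp3 (chrX:7580233-7580532, plus strand): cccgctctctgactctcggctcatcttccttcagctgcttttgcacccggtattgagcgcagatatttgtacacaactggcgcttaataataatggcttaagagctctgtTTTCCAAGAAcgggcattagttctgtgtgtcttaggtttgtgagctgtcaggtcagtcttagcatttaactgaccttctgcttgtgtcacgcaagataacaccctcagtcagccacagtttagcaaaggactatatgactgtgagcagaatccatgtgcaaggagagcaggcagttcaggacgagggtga
Nrp1 (chr8:128358823-128359122, plus strand): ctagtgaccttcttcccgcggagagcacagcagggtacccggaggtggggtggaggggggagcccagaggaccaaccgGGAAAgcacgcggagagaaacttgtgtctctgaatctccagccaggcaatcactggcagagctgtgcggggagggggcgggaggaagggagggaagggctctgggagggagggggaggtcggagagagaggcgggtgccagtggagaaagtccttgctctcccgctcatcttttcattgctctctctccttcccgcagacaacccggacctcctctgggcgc
Il1rl1 (chr1:40439379-40439678, plus strand): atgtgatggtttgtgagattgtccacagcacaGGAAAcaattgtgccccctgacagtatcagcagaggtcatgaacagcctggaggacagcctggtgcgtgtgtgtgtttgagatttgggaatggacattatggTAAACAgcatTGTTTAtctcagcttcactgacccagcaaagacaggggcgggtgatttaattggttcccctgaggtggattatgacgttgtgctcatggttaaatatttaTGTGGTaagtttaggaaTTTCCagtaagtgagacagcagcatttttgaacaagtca
The single marked run of Foxp3 is a GGAAA match on the minus strand that overlaps a TTCNNNGAA match, starting 140 and 139 bases before the start site. GGAAA was present in 61.3% of 32851 promoter windows of that length and TTCNNNGAA in 8.30%. Il1rl1 held 2 matches to TGTTTA, on opposite strands and pointing away from each other, a motif found in 13.4% of windows, as well as 2 GGAAA matches and 1 TGTGGT match (16.8% of windows). Nrp1 held 1 GGAAA match and none of the other 4 motifs. A match describes letters only.

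By TPM per gene span, the order of the mean levels over 28 libraries was Foxp3 (28.6 TPM), Ikzf2 (15.02), Il1rl1 (6.28), Lrrc32 (4.78), Klrg1 (3.75), Ikzf4 (3.63), Ebi3 (2.83), Gpr83 (2.31) and Nrp1 (0.376). The span weighs on this order: exons in GENCODE M21 cover 78.5% of the Il1rl1 span but 7.50% of the Ikzf2 span and 6.68% of the Nrp1 span. Divided by exon length instead, Ikzf2 came first with 30.5 reads per kilobase of exon at an equal total of reads per library, ahead of Foxp3 with 14.8 and Klrg1 with 5.08, and Gpr83 came last with 0.796. Whether reads were counted over exons alone or over whole gene spans is not stated. Intron reads may therefore be part of these figures, and neither order is settled. The reads behind the values ranged from 273 to 2038 per library for Foxp3 and from 2362 to 8959 for Ikzf2. They were few for Ebi3 (4 to 50), Gpr83 (6 to 102), Lrrc32 (9 to 198) and Klrg1 (14 to 245). Nrp1 reached 1 TPM in 0 of 28 libraries, on 27 to 237 reads, so that it fell below the filter of 1 TPM in at least 6 libraries and was tested only in fits without it.

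**Figure D1:**
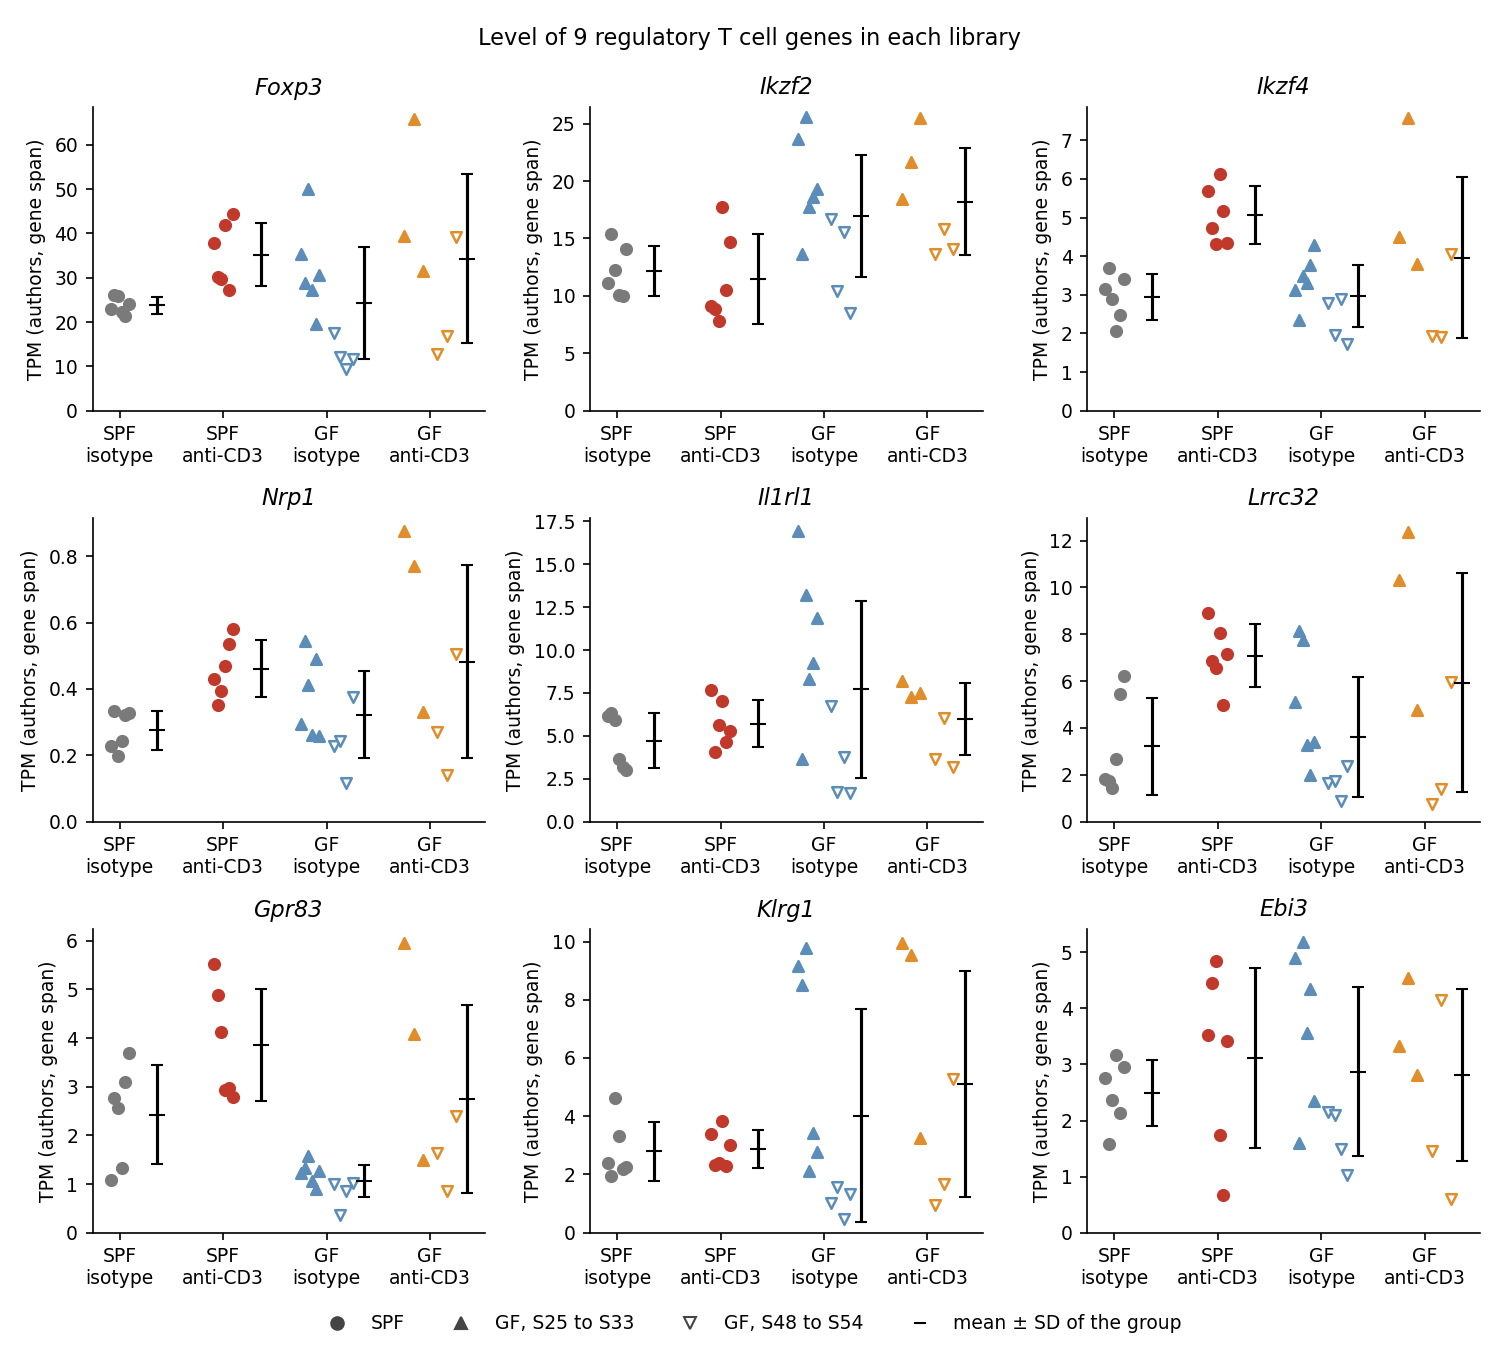
Level of each of the 9 genes in every library, as TPM per gene span on linear axes that start at 0, by group (circles SPF, filled triangles GF libraries S25 to S33, open triangles GF libraries S48 to S54; bars give the mean ± SD of the group). Foxp3, Ikzf4 and Nrp1 in SPF aCD3 lie above every SPF isotype library, and the open triangles sit low in most panels.

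In SPF mice, the transcription factor gene Ikzf4 and the surface receptor gene Lrrc32 rose after aCD3. The levels of Foxp3 and Nrp1 were higher in every aCD3 library than in any isotype library. Foxp3 did not pass the test fitted over all 4 groups, which did not include Nrp1. The levels of Ikzf2, Il1rl1, Klrg1 and Ebi3 overlapped between the groups. Foxp3 ranged from 21.3 to 26.1 TPM (median 23.4) in the 6 SPF isotype libraries and from 27.3 to 44.5 TPM (median 34.02) in the 6 SPF aCD3 libraries. Every SPF aCD3 library lay above every SPF isotype library. The means were 23.8 ± 1.98 and 35.2 ± 7.18 TPM (SD, n = 6 each), and the log2(TPM + 1) difference of 0.53 ± 0.34 (SE) had an adjusted p of 0.18 in limma over all genes. A gene is said to be called where this p, adjusted by Benjamini-Hochberg over 12182 genes, is under 0.05. Fitted with the SPF libraries alone, whose spread is smaller than that of the GF libraries, the same difference had an adjusted p of 0.0027 (65.2% of genes called), and after rescaling it was 0.94 with an adjusted p of 0.035. Of the 2 rows that overlap it, Flicr had means of 2.95 ± 0.680 and 3.22 ± 0.779 TPM and Ccdc22 of 10.5 ± 2.59 and 12.6 ± 1.07 TPM in SPF isotype and SPF aCD3.

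Ikzf4, whose product Eos acts with FOXP3 in gene silencing, ranged from 2.06 to 3.68 TPM (median 3.02) in SPF isotype and from 4.31 to 6.13 TPM (median 4.95) in SPF aCD3. The groups did not overlap, and Ikzf4 rose by 0.63 ± 0.20 (SE) on the log2(TPM + 1) scale (adjusted p = 0.0082, limma). This call held when each of the 28 libraries was left out. Ikzf2, whose product Helios belongs to the same zinc finger family, ranged from 10.0 to 15.4 TPM (median 11.6) in SPF isotype and from 7.85 to 17.8 TPM (median 9.78) in SPF aCD3. Its difference was -0.12 ± 0.22 (adjusted p = 0.65), and 0.27 after rescaling, so its sign depends on the scaling. Set against Foxp3 in the same library, a ratio that no scaling alters, Ikzf2 per Foxp3 ranged from 0.453 to 0.589 in SPF isotype and from 0.240 to 0.424 in SPF aCD3, without overlap. The same held for the ratio to Foxp3 of 48.8% of the 12181 tested genes other than Foxp3. The log2 difference of Ikzf2 relative to Foxp3 was -0.64 ± 0.34 (adjusted p = 0.11). In that fit 40.0% of 12181 genes were called, 4516 of 4875 of them lower relative to Foxp3, and of the 7 tested members 0 were called, with 0 under an unadjusted p of 0.05.

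Among the surface genes, Lrrc32 ranged from 1.44 to 6.20 TPM (median 2.25) in SPF isotype and from 4.99 to 8.92 TPM (median 7.002) in SPF aCD3. Of the isotype libraries M2 and M3 lay within the aCD3 range at 5.47 and 6.20 TPM, and the other 4 lay below it. Lrrc32 rose by 1.06 ± 0.44 (adjusted p = 0.037, limma), and 1.43 after rescaling. The call was lost when any 1 of 8 libraries was left out (SPF isotype or SPF aCD3 F1, F2, F3 or M1), with adjusted p-values from 0.055 to 0.076. Gpr83 ranged from 1.09 to 3.69 TPM (median 2.66) in SPF isotype and from 2.78 to 5.51 TPM (median 3.54) in SPF aCD3. The 2 groups overlapped, the difference of 0.54 ± 0.25 had an adjusted p of 0.065, and after rescaling Gpr83 rose by 0.87 (adjusted p = 0.0089) with no overlap. Without GF aCD3 M1, GF aCD3 M4 or SPF isotype M3, Gpr83 was also called as deposited (adjusted p from 0.034 to 0.047). Nrp1, a semaphorin and VEGF co-receptor, ranged from 0.199 to 0.334 TPM (median 0.281) in SPF isotype and from 0.353 to 0.581 TPM (median 0.451) in SPF aCD3. Its groups did not overlap, on 56 to 88 and 100 to 136 reads. Without the low-value filter its log2(TPM + 1) difference, which is compressed at such levels, was 0.20 (adjusted p = 0.096). Fitted to the recovered reads with limma voom, chosen after the values were seen, Nrp1 rose by 1.17 ± 0.39 (adjusted p = 0.012). This fit, with its own filter on reads, called 57.6% of 13396 genes, and voom with the TPM filter, which leaves out Nrp1, called 59.2%.

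The last 3 genes overlapped between the groups. Il1rl1 had means of 4.73 ± 1.58 and 5.72 ± 1.38 TPM in SPF isotype and SPF aCD3, Klrg1 of 2.80 ± 1.02 and 2.88 ± 0.649 TPM, and Ebi3 of 2.50 ± 0.586 and 3.11 ± 1.61 TPM (SD, n = 6 each). Their adjusted p-values lay between 0.57 and 0.92. Of all members, 2 of the 8 tested members were called, both higher, with a median difference of 0.39, against 64.8% of all 12182 tested genes called (14.2% higher and 50.7% lower) and a median of -0.35. After rescaling 4 of 8 were called, all higher (Foxp3, Ikzf4, Lrrc32 and Gpr83), against 59.9% of all genes called and 30.6% higher. Libraries of Foxp3, Ikzf4 and Nrp1 did not overlap between groups, all higher in aCD3, beside 8.57% of the tested genes with every aCD3 library above every isotype library. After rescaling these were 5 members, with Lrrc32 and Gpr83, beside 20.5% of genes. The myeloid and dendritic cell marker list summed to 57.8 to 107 TPM in SPF aCD3 and 4.23 to 13.2 TPM in SPF isotype, with C1qa and C1qb at 0 in every SPF aCD3 library. Nearly all of the higher sum was Cd68, at 76.5 ± 19.6 TPM in SPF aCD3 and 5.99 ± 4.30 TPM in SPF isotype. The means of 9 of the other 10 markers were lower in SPF aCD3, such as Itgax at 0.290 against 1.24 TPM, and that of Cd14 was higher, at 0.535 against 0 TPM. The B and plasma cell list summed to 2.95 to 9.16 and 95.5 to 266 TPM, the stromal list to 0.411 to 0.915 and 3.94 to 32.5 TPM, and the endothelial list to 2.53 to 3.90 and 7.50 to 11.3 TPM. Nearly all of the endothelial sum was Pecam1, at 3.35 ± 0.549 and 9.52 ± 1.36 TPM, while the mean of Cdh5 was 0.047 and 0.004 TPM. The NK cell list summed to 13.1 to 24.9 TPM in SPF aCD3 and 36.7 to 51.4 TPM in SPF isotype, with Klrb1c at 2.55 ± 0.618 and 21.5 ± 3.98 TPM. Of its other markers Ncr1, Eomes and Klre1 had lower means in SPF aCD3 and Klrd1 a higher one, at 12.7 ± 4.43 against 9.65 ± 2.13 TPM. The mast cell list summed to 3.94 to 5.32 TPM in SPF aCD3 and 1.18 to 2.08 TPM in SPF isotype, nearly all of it Kit (4.59 ± 0.543 and 1.04 ± 0.232 TPM), with Fcer1a, Ms4a2, Mcpt1, Mcpt2 and Tpsb2 at 0 in every SPF library. The ILC2 list summed to 5.71 to 18.1 TPM (median 12.1) and 15.1 to 20.2 TPM (median 18.6). Dendritic cells use Nrp1 and Ebi3, endothelial cells use Nrp1 and Lrrc32, NK cells use Klrg1, mast cells use Il1rl1 and ILC2 use Il1rl1 and Klrg1; the part of such cells in these values was not tested.

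Of a wider regulatory T cell list of 26 other genes, all tested, 16 rose and 2 fell in SPF aCD3 (median 0.96), and 18 rose and 2 fell after rescaling, beside 14.2% of all genes higher and 50.7% lower as deposited and 30.6% and 29.3% rescaled. Among those with the largest changes and a mean of at least 5 TPM, Areg, an epithelial repair factor, went from 12.4 ± 3.10 to 96.1 ± 8.69 TPM, and Il10, the suppressive cytokine, from 92.3 ± 11.7 to 654 ± 78.5 TPM (log2 differences 2.88 and 2.81). Tnfrsf4, the costimulatory receptor OX40, rose by 2.62. These genes are not restricted to regulatory T cells: activated T cells of other kinds use most of them. The alpha chain of the IL-2 receptor, Il2ra, rose from 11.2 ± 2.15 to 24.6 ± 4.17 TPM and the inhibitory receptor Ctla4 from 518 ± 111 to 1088 ± 90.8 TPM.

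Of 28 genes of factors that act with FOXP3, 4 rose and 18 fell (median -0.60), beside 50.7% of all genes lower and a median gene at -0.35. After rescaling 5 rose and 11 fell (median -0.18), beside 29.3% of all genes lower. Nr4a3, an early target of T cell receptor signals, fell by 2.39, Tcf7 by 1.58, the TGF-beta mediator Smad3 by 1.58 and Foxo3 by 1.53 on the log2 scale. In the Ikaros family of 5, Ikzf4 rose as deposited, Ikzf1 fell by 0.76 and Ikzf5 by 0.84. Ikzf1 and Ikzf5 stayed lower after rescaling, by 0.34 and 0.45, and Ikzf3 was then called higher with Ikzf4, by 0.42 (adjusted p = 0.0059). Of the 24 ligands, co-receptors and signal mediators of the members, 17 were tested, of which 1 rose and 10 fell (median -0.30; 2 and 7 after rescaling). Plxna1, a semaphorin co-receptor that works with neuropilin-1, fell by 2.11, and Inpp5d, a phosphatase of the PI3K pathway, fell by 0.90.

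**Figure D2:**
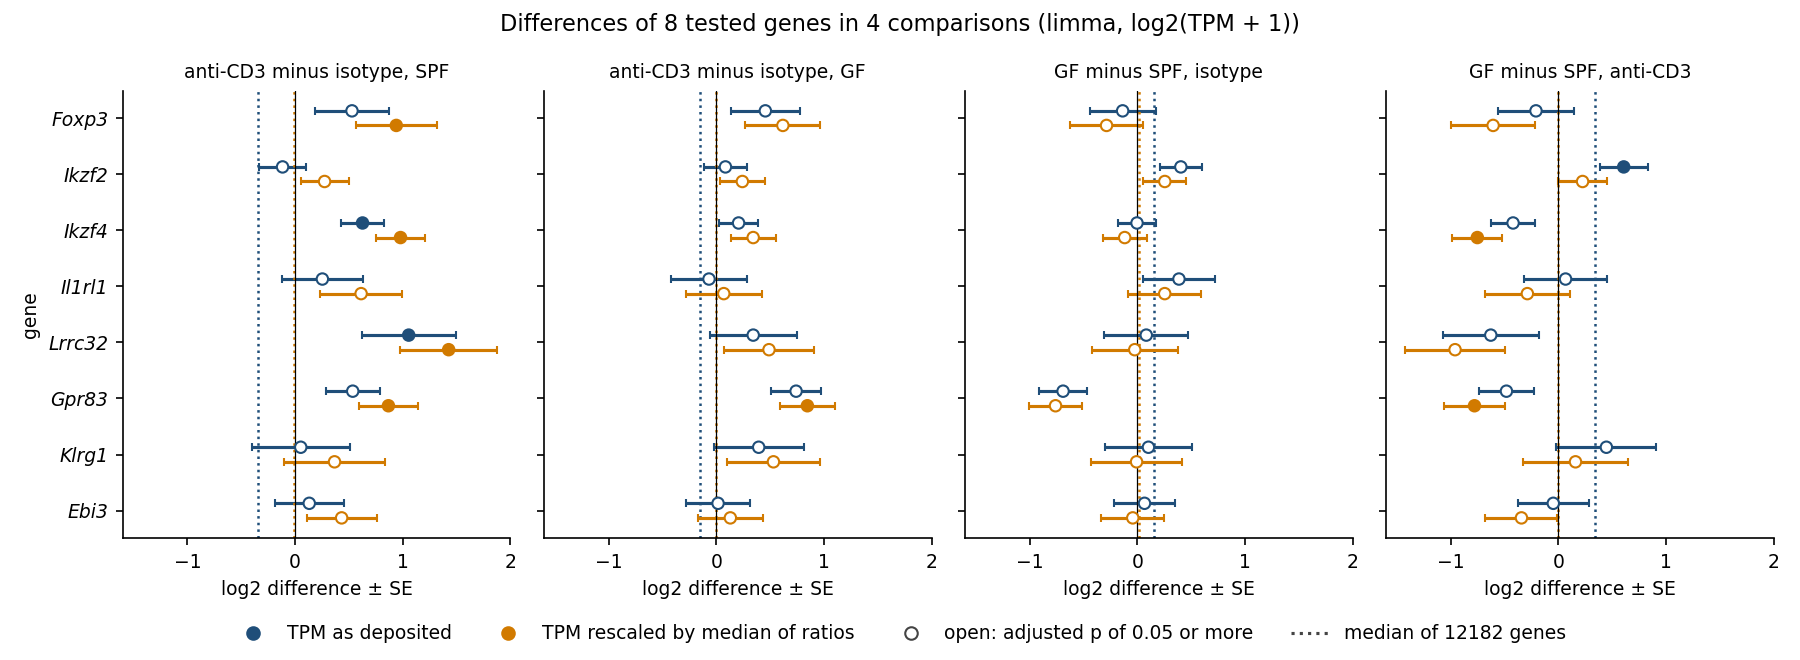
Log2(TPM + 1) difference ± SE of the 8 tested genes in 4 comparisons, for TPM as deposited (blue) and rescaled (orange); filled points have a limma adjusted p under 0.05 and dotted lines give the median of 12182 genes. In SPF mice the points of Foxp3, Ikzf4, Lrrc32 and Gpr83 lie well to the right of the dotted lines.

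In GF mice 7 of the 8 tested members had positive differences after aCD3, from 0.02 for Ebi3 to 0.74 for Gpr83, and Il1rl1 stood at -0.07, but no member was called and the libraries spread widely. Foxp3 ranged from 9.47 to 50.1 TPM (median 23.4) in the 10 GF isotype libraries. In GF aCD3 it stood at 12.7 TPM in F1, 16.8 in M4, 31.5 in M3, 39.2 in M5, 39.5 in M1 and 65.7 in M2. The groups overlapped, and the 3 libraries with the highest values were the 3 with histone shares of 23.4% to 26.3%. The difference was 0.46 ± 0.32 (adjusted p = 0.29, limma). Gpr83 ranged from 0.373 to 1.57 TPM (median 1.05) in GF isotype and from 0.863 to 5.96 TPM (median 2.02) in GF aCD3. Of the 6 GF aCD3 libraries 4 lay above every isotype library, and the difference was 0.74 ± 0.23 (adjusted p = 0.051). Rescaled, it was 0.85 (adjusted p = 0.043), beside 9.73% of genes called. It was also called without F1, M3 or M4 of GF aCD3 (adjusted p from 0.012 to 0.019).

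The other members differed less in GF mice. Ikzf4 had means of 2.97 ± 0.802 and 3.96 ± 2.08 TPM, Lrrc32 of 3.63 ± 2.57 and 5.93 ± 4.68 TPM and Nrp1 of 0.322 ± 0.131 and 0.483 ± 0.291 TPM (SD, n = 10 and 6). Ikzf2 was close in both, at 16.96 ± 5.30 and 18.2 ± 4.66 TPM. Il1rl1 stood at 7.72 ± 5.17 and 5.98 ± 2.102 TPM, Klrg1 at 4.02 ± 3.65 and 5.11 ± 3.89 TPM and Ebi3 at 2.87 ± 1.51 and 2.82 ± 1.53 TPM. Of 8 tested members 0 were called by limma and 1, Gpr83, had an unadjusted p under 0.05 (voom called 0 as well), beside 7.08% of all genes called in limma and 7.73% in voom. With the number range as a covariate, Foxp3 rose by 0.61 ± 0.21 (adjusted p = 0.046) and Gpr83 by 0.81 ± 0.21 (adjusted p = 0.023), beside 18.2% of genes. In the libraries S25 to S33 alone, where 13.5% of genes were called, the 2 differences were 0.57 and 1.099 (adjusted p = 0.11 and 0.025), and in S48 to S54 they were 0.66 and 0.53 (adjusted p = 0.36 and 0.37), where limma called 0 genes (0.0%) in all.

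Whether the aCD3 difference itself depended on colonisation was tested as the GF difference minus the SPF difference. Of 8 members 0 were called by limma, 0 had an unadjusted p under 0.05 and voom called 0, beside 3.48% of all genes called in limma and 15.0% in voom. After rescaling 0 were called as well, beside 11.7% of genes. The interaction was -0.07 ± 0.47 for Foxp3, -0.42 ± 0.27 for Ikzf4, -0.71 ± 0.59 for Lrrc32 and 0.21 ± 0.34 for Gpr83. For Foxp3, the standard error was nearly as large as the aCD3 difference in SPF mice, and missing the threshold does not show that the effects were equal. For the aCD3 difference in GF mice, the wider regulatory T cell list held 1 higher and 2 lower genes of 26, beside 7.08% of all genes called: Tnfrsf9 rose by 0.91, and Socs2 and Fgl2 fell by 0.95 and 0.73. After rescaling 4 were higher (Tnfrsf9, Tigit, Nt5e and Il10) and 2 lower, beside 9.73% of all genes called. Of the 6 GF aCD3 libraries, M1, M2 and M5 had Il10 levels of 403 to 630 TPM, and F1, M3 and M4 had 93.5 to 141 TPM, within the GF isotype range of 44.3 to 165 TPM. Of the 28 factor partners 0 were called in either direction, and of the 17 tested partners of the members 2 fell, among them Plxna1 by 0.88.

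Between GF and SPF mice under isotype antibody, no member was called either. Foxp3 medians were equal to the first decimal, at 23.4 TPM in each group, while the range was 21.3 to 26.1 TPM in SPF and 9.47 to 50.1 TPM in GF. The difference was -0.14 ± 0.31 (adjusted p = 0.80). Ikzf2 ranged from 10.0 to 15.4 TPM (median 11.6) in SPF and from 8.53 to 25.5 TPM (median 17.2) in GF, a difference of 0.40 ± 0.20 (adjusted p = 0.19). Gpr83 ranged from 1.09 to 3.69 TPM in SPF and was lower in most GF libraries, from 0.373 to 1.57 TPM, a difference of -0.69 ± 0.23 (adjusted p = 0.060). Of 8 members 0 were called by limma, 2 had an unadjusted p under 0.05 (Gpr83 and Ikzf2) and voom called 0, beside 7.17% of all genes called in limma and 1.85% in voom. After rescaling 0 were called, beside 1.63% of genes. Gpr83 was called without GF aCD3 M1, GF aCD3 M4, SPF isotype F1 or SPF isotype M1 (adjusted p from 0.032 to 0.043). Gata3, the factor of type 2 T cells that a subset of gut regulatory T cells also uses, rose from 52.1 ± 7.76 to 80.7 ± 19.7 TPM (0.60, adjusted p = 0.030), but not after rescaling (0.44, adjusted p = 0.15).

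Under aCD3, Ikzf2 was the only member called between GF and SPF mice. It ranged from 7.85 to 17.8 TPM (median 9.78) in SPF aCD3 and from 13.6 to 25.5 TPM (median 17.1) in GF aCD3. The ranges overlapped, and Ikzf2 was higher by 0.61 ± 0.22 (adjusted p = 0.026), beside 53.3% of all genes called and 48.9% higher, with a median gene at 0.34. After rescaling the Ikzf2 difference was 0.22 (adjusted p = 0.47). The call was also lost without GF aCD3 M3, SPF aCD3 F3 or SPF aCD3 M2 (adjusted p from 0.054 to 0.070). Rescaled values placed Ikzf4 and Gpr83 lower in GF aCD3 instead, by 0.75 and 0.78 (adjusted p = 0.017 and 0.037), beside 32.7% of genes called and 16.9% lower. As deposited, they were called lower without 1 library, Ikzf4 without GF aCD3 M2 (adjusted p = 0.0090) and Gpr83 without GF aCD3 M1 (adjusted p = 0.016). In voom 2 members were called, beside 35.8% of genes. All 4 called genes of the Ikaros family were higher in GF aCD3 as deposited (Ikzf1, Ikzf2, Ikzf3 and Ikzf5). After rescaling 0 of the 5 were called higher and Ikzf4 was called lower, while the differences of Ikzf1, Ikzf2 and Ikzf5 were 0.17, 0.22 and 0.21. The wider regulatory T cell list split into 4 higher and 10 lower of 26 (2 and 11 after rescaling), with Areg, Il10 and S1pr1 lower by 1.71, 1.51 and 1.48. The GF aCD3 libraries did not form 1 level here: Il10 stood at 403, 588 and 630 TPM in M1, M2 and M5, the libraries with the high histone shares, and at 93.5, 109 and 141 TPM in F1, M3 and M4, against 556 to 766 TPM in SPF aCD3.

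The comparisons of GF with SPF mice average GF libraries that differ among themselves. Within GF isotype, Foxp3 stood at 19.5 to 50.1 TPM (median 29.7) in the 6 libraries numbered S25 to S33 and at 9.47 to 17.6 TPM (median 11.9) in the 4 numbered S48 to S54. The 2 ranges did not overlap. The means were 31.9 ± 10.3 and 12.7 ± 3.47 TPM, and Foxp3 was lower in S48 to S54 by 1.24 ± 0.26 on the log2 scale (adjusted p = 0.013, limma, a comparison chosen after the values were seen). Klrg1 stood at 2.14 to 9.79 TPM in S25 to S33 and at 0.469 to 1.56 TPM in S48 to S54, again without overlap, and was lower by 1.58 ± 0.35 (adjusted p = 0.021). In the first set its 3 female libraries were the highest, at 8.51 to 9.79 TPM, and its 3 male libraries lay between 2.14 and 3.43 TPM. Of all 12182 tested genes, 17.4% had every female library above every male one in this set. Il1rl1 stood at 3.66 to 16.9 TPM and at 1.70 to 6.73 TPM, with overlap, and was lower by 1.39 ± 0.31 (adjusted p = 0.021).

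All 8 tested members had negative differences between these sets, and 3 were called, beside 0.985% of all genes called (75 lower and 45 higher) and a median gene at 0.03. Foxp3 and Klrg1 had every S48 to S54 library below every S25 to S33 library, as had 4.53% of tested genes. After rescaling the same 3 genes were called, beside 2.11% of all genes. The remaining differences were -1.08 for Lrrc32, -0.75 for Ebi3, -0.61 for Ikzf2, -0.40 for Ikzf4 and -0.31 for Gpr83, with adjusted p-values of 0.19 to 0.64. In turn leaving out each of the 10 GF isotype libraries, Foxp3 lost its call without F5 or M4 (adjusted p = 0.062 and 0.061), Il1rl1 without F1, F3, F5, M3 or M5, and Klrg1 without F1, F2, F3, F4, F5 or M4. In GF aCD3 the 3 libraries of S25 to S33 held 31.5 to 65.7 TPM of Foxp3 and the 3 of S48 to S54 held 12.7 to 39.2 TPM. Lrrc32 there ranged from 4.75 to 12.4 TPM and from 0.758 to 5.97 TPM.

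Other genes differed between the number ranges of GF isotype as well. Gata3 stood at 94.3 ± 11.5 and 60.3 ± 5.43 TPM in S25 to S33 and S48 to S54 (lower by 0.63, adjusted p = 0.015). Nr4a1, an early target of T cell receptor signals, stood at 358 ± 66.0 and 165 ± 11.8 TPM and was lower by 1.096. Of the wider regulatory T cell list 2 of 26 genes were lower and 0 higher, Cd83 by 1.28 and the migration receptor S1pr1 by 0.80. Tgfb1, whose latent product GARP holds, was lower by 0.58, and Il12rb2 was higher by 1.28, from 48.7 ± 12.3 to 119.9 ± 32.5 TPM. Ccdc22, which shares 1434 bases with Foxp3, stood at 12.1 ± 3.51 and 7.12 ± 1.41 TPM. The ILC2 marker list (Nmur1, Il5, Il13, Il17rb and Bmp7, of which type 2 T cells use Il5 and Il13) summed to 30.5 to 83.7 TPM in S25 to S33 and 11.6 to 22.8 TPM in S48 to S54. ILC2 use Il1rl1 and Klrg1 as well, and the part of such cells was not tested. The NK cell list summed to 15.5 to 82.0 and 16.3 to 54.9 TPM, and of the 7 mast cell markers 5 were at 0 in every S25 to S33 isotype library and 2 in every S48 to S54 one. The endothelial list summed to 6.52 to 8.26 and 8.92 to 11.4 TPM, without overlap, and the B and plasma cell list to medians of 66.7 and 21.1 TPM. The myeloid and dendritic cell list summed to 4.25 to 19.4 TPM (median 9.40) and 16.8 to 20.3 TPM (median 19.4). The CD8 T cell list had medians of 2.90 and 2.37 TPM, with a highest library of 61.2 TPM in S48 to S54. The part of these lists was not tested either. The CD4+ T cell list overlapped, at 2184 to 2472 and 2158 to 2431 TPM.

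**Figure D3:**
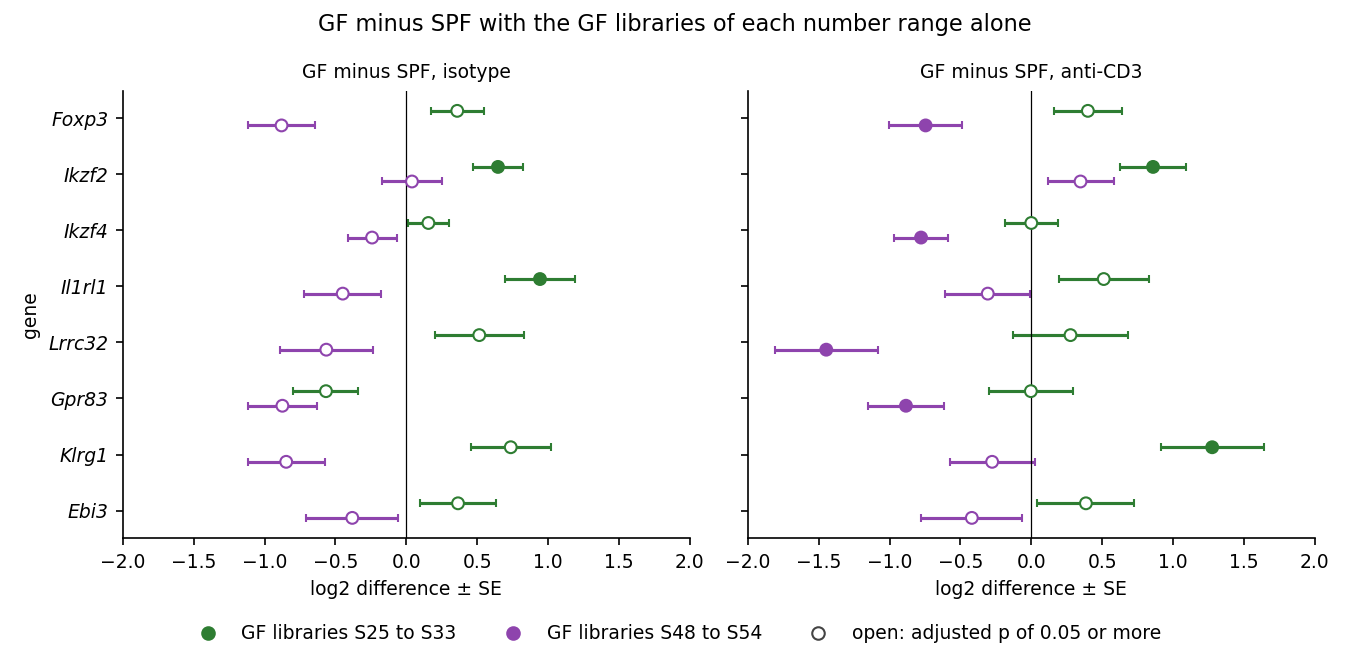
Log2(TPM + 1) difference ± SE between GF and SPF libraries for the 8 tested genes, with the GF libraries S25 to S33 alone (green) or S48 to S54 alone (purple), under isotype antibody (left) and aCD3 (right); filled points have a limma adjusted p under 0.05. Purple points lie to the left of the green points of the same gene in every row.

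Set against SPF isotype separately, the 2 GF sets gave opposite signs for most members. With S25 to S33 as deposited, Il1rl1 was higher by 0.94 ± 0.25 (adjusted p = 0.024) and Ikzf2 by 0.65 ± 0.18 (adjusted p = 0.031), beside 8.55% of genes called. In this set 7 of 8 members were positive. The ILC2 list summed to 30.5 to 83.7 TPM in these libraries and 15.1 to 20.2 TPM in SPF isotype, without overlap, and its part in the Il1rl1 difference was not tested. Foxp3 differed by 0.36 ± 0.19 (adjusted p = 0.23). With S48 to S54, 7 of 8 members were negative, Foxp3 by -0.88 ± 0.24 (adjusted p = 0.067) and Klrg1 by -0.85 ± 0.27 (adjusted p = 0.11), and 0 of 8 were called, beside 1.57% of genes. Gpr83 was the only member negative in both, at -0.57 and -0.87 (adjusted p = 0.12 and 0.076). Against SPF aCD3, the S25 to S33 libraries as deposited were higher in Klrg1 by 1.28 and Ikzf2 by 0.86, beside 30.8% of genes called. The ILC2 list, whose cells use Klrg1, summed to 35.4 to 41.4 TPM there and 5.71 to 18.1 TPM in SPF aCD3, again without overlap, and its part was not tested. After rescaling, the S25 to S33 libraries no longer gave a call of Ikzf2 under aCD3. Against the fit of all libraries, the rescaled set gained 1 member call, counted over both comparisons with SPF and the aCD3 difference in GF mice. At most 1 of the calls of Il1rl1, of Ikzf2 under isotype and of Klrg1 was thus kept. The S48 to S54 libraries were lower in Lrrc32 by 1.45, Gpr83 by 0.88, Ikzf4 by 0.78 and Foxp3 by 0.75 (adjusted p = 0.0055, 0.014, 0.0051 and 0.026), beside 48.7% of genes called. Rescaled, this set gained 4 member calls by the count above. Its aCD3 libraries F1 and M4 held 12.7 and 16.8 TPM of Foxp3 and 0.758 and 1.40 TPM of Lrrc32. M5 held 39.2 and 5.97 TPM, within the SPF aCD3 ranges, and its Gpr83 and Ikzf4 lay below them at 2.40 and 4.05 TPM. Il10 was low in F1 and M4 (93.5 and 141 TPM) and high in M5 (630 TPM). In S25 to S33 it was low in M3 (109 TPM) and high in M1 and M2 (403 and 588 TPM). The part of this split was not tested. Each arm here held 3 or 4 GF libraries in the second set and 3 or 6 in the first.

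How closely each member followed Foxp3 from library to library was measured after standardising log2(TPM + 1) within each of the 4 groups, so that group differences do not enter. Klrg1 followed it most closely (Pearson's r = 0.74, Spearman's rho = 0.74, n = 28), then Ikzf2 (0.73 and 0.71), Il1rl1 (0.63 and 0.63), Ikzf4 (0.62 and 0.61), Lrrc32 (0.56 and 0.56), Gpr83 (0.45 and 0.41), Nrp1 (0.41 and 0.45) and Ebi3 (0.25 and 0.26). In two-sided permutation tests within groups, Benjamini-Hochberg adjusted over the 8 relations, 7 passed 0.05 (adjusted p from 2.4e-04 to 0.049 for r, from raw p of 3.0e-05 to 0.043) and Ebi3 did not (adjusted and raw p = 0.23). For rho the adjusted p-values of those 7 ran from 4.8e-04 to 0.047, from raw p-values of 6.0e-05 to 0.041. By the same test of r, 18.9% of 10758 tested genes had an unadjusted p under 0.05, and 6.77% did so with a positive r. Without the 2 libraries farthest from the Foxp3 median, GF isotype M4 and GF aCD3 F1, r was 0.69 for Klrg1 and 0.74 for Ikzf2, while Gpr83 (0.42) and Nrp1 (0.31) no longer passed, and neither did the rho of Lrrc32 (adjusted permutation p = 0.051).

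The likeness was weaker within the GF number ranges. Standardised within group and number range, r was 0.60 for Klrg1 (adjusted permutation p = 0.026), 0.50 for Ikzf2 (0.062), 0.44 for Lrrc32 (0.10), 0.39 for Ikzf4 (0.13), 0.36 for Il1rl1 (0.14), 0.35 for Gpr83 (0.14), 0.20 for Nrp1 (0.41) and 0.11 for Ebi3 (0.62). Within number ranges the relation to Foxp3 thus passed 0.05 after adjustment for Klrg1 and for none of the 7 others. Unadjusted, 3 of the 7 members among the 10758 tested genes had a p under 0.05 there, beside 6.02% of these genes. Standardised within group alone, r in the 12 SPF libraries was 0.78 for Ikzf2 and 0.54 for Klrg1 but 0.09 for Lrrc32 and 0.02 for Gpr83. On that measure r in the 16 GF libraries was 0.90 for Lrrc32, 0.89 for Klrg1 and 0.75 for Gpr83, and these values still hold the difference between the GF number ranges. The difference between SPF and GF libraries was not tested. Over 10758 tested genes, the 5 closest to Foxp3 in all 28 libraries, standardised within group alone, were Cdk1 (r = 0.82), Ndc80 (0.79), Ttk (0.79), Arhgap19 (0.78) and Ccdc22 (0.78). Within group and number range their r was 0.53, 0.70, 0.55, 0.49 and 0.77, and the last of them is the gene whose row overlaps that of Foxp3. Klrg1 ranked 12 and Ikzf2 18 among these genes, Il1rl1 89, Ikzf4 112, Lrrc32 217, Gpr83 533 and Ebi3 1571.

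**Figure D4:**
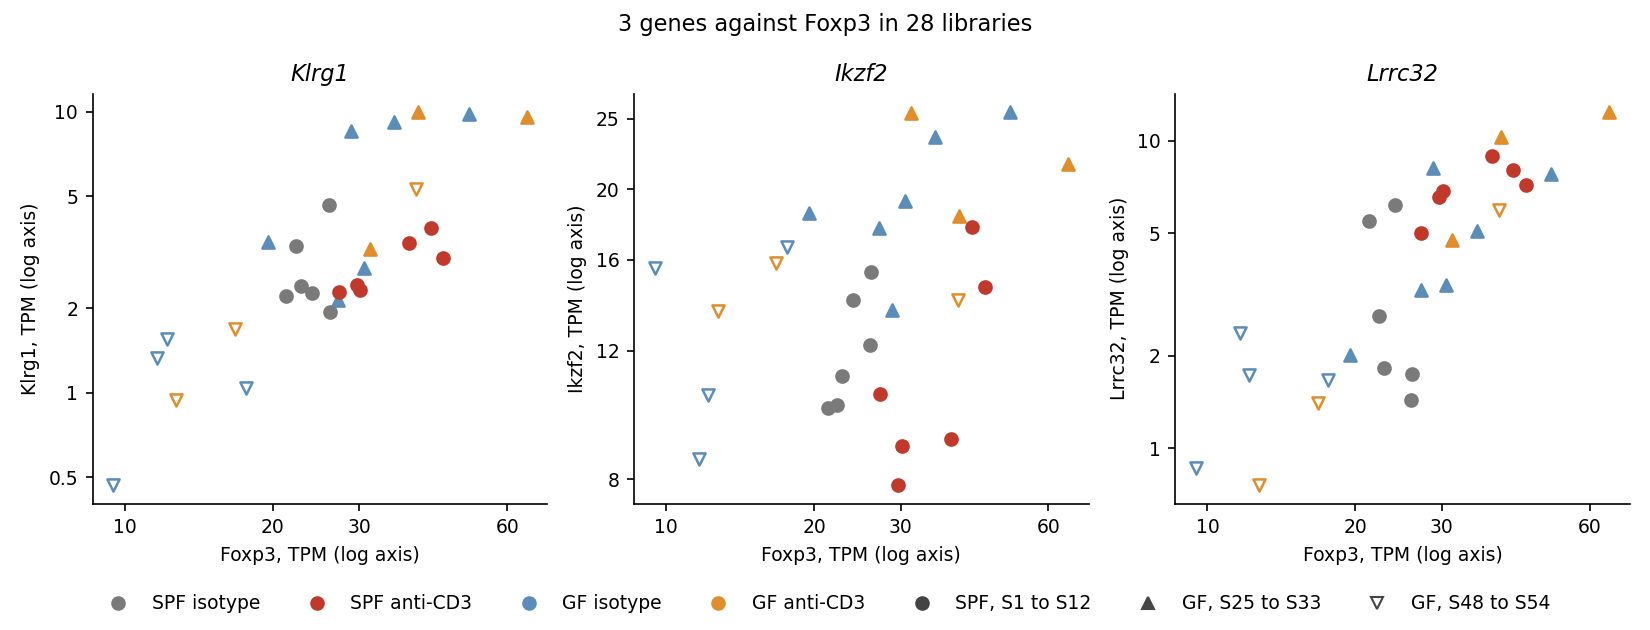
Level of Klrg1, Ikzf2 and Lrrc32 against Foxp3 in 28 libraries, both as TPM per gene span on log axes, coloured by group and marked by number range. Most open triangles (S48 to S54) lie at low Foxp3 levels, except GF aCD3 M5 at 39.2 TPM, and the Ikzf2 levels of SPF aCD3 libraries (red) are low for their Foxp3 levels.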

How the data were processed

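Per the labels, libraries of the sorted CD4+ T cells were prepared with a kit for total RNA; polyA RNA is named as the molecule elsewhere in them. Per the file headers, the authors computed the deposited TPM table with HOMER's analyzeRepeats.pl on mm10 from tag directories of alignments; the aligner's version, filters and use of strand are not given in the sources used here. The deposited TPM are per gene span. Of the table's columns, 26 that match no sample here were not used. Reads were recovered from the TPM steps (100% of low values whole within 0.1 read), and voom was run on them as an alternative.

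The main test was limma 3.58.1 (R 4.3.3) on log2(TPM + 1) with group and sex terms over all 28 libraries, trended eBayes and Benjamini-Hochberg adjustment over 12182 genes with at least 1 TPM in at least 6 libraries; called means an adjusted p under 0.05. Likeness to Foxp3 used 100000 permutations within groups (NumPy 2.4.6). Fits were tested on simulated data. The members and lists were chosen with earlier results of these data known. Named list genes were up to 4 called genes with the largest change and a mean of at least 5 TPM, and Gata3, Il2ra, Ctla4 and Il10 where a comparison turned on them; some items of the rule are not reported here. Alternatives were the pseudocount, the filter, rescaling, leaving out Rn45s and histone genes, the sex term, array weights, the groups fitted, the GF number ranges, a replicate block and leaving out each library.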

Additional observations from a re-analysis of the deposited data

How the results depend on the processing

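With aCD3 in SPF mice, every alternative kept the count of genes called within 1.5 times of 7898 (7414 to 8057 leaving out 1 library). The members called, 2, became 1 without a filter or with a filter of 5 TPM, 4 after rescaling, in the SPF groups alone or in voom, 5 in voom with a read filter (which tests Nrp1), and 1 to 3 leaving out 1 library. With aCD3 in GF mice, 862 genes became 0 with a pseudocount of 0.1, without a filter, with the replicate block, in the GF groups alone or in S48 to S54 (rescaled too), 2472 without a sex term, 3636 with array weights, 2215 with the number range as a covariate, 1647 in S25 to S33 (2159 rescaled) and 0 to 4215 leaving out 1 library. Members called, 0, became 1 after rescaling, without histone genes and Rn45s, without a sex term, with array weights or in S25 to S33, 2 with the number range and 0 to 1 leaving out 1 library.

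For GF against SPF under isotype, 874 genes became 199 after rescaling, 2390 without histone genes and Rn45s, 1812 in the 2 groups alone, 1904 with array weights, 225 in voom, 310 in voom with a read filter, 449 in rescaled S25 to S33, 191 in S48 to S54 (129 rescaled) and 322 to 1137 leaving out 1 library. Members called, 0, became 1 without histone genes and Rn45s, in the 2 groups alone or with array weights, 2 in S25 to S33, and 0 to 1 leaving out 1 library. Under aCD3, 6496 genes became 3986 after rescaling, 3680 with array weights, 3754 in S25 to S33 (1117 rescaled), 4272 in rescaled S48 to S54 and 4886 to 7226 leaving out 1 library. Members called, 1, became 2 after rescaling, in either voom fit or in S25 to S33, 0 without histone genes and Rn45s, in the 2 groups alone or with array weights, 4 in S48 to S54, and 0 to 2 leaving out 1 library. Ikzf2 under aCD3 reversed to -0.049 in rescaled S48 to S54. For the difference of the aCD3 effects, 424 genes became 774 and 273 with pseudocounts of 0.1 and 5, 233 without a filter, 1423 after rescaling, 162 with the replicate block, 159 with array weights, 1824 and 1834 in the voom fits, 98 in S25 to S33, 9 in S48 to S54 and 32 to 3187 leaving out 1 library, with 0 members called throughout. The cause of these changes was not tested.

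No pairing by replicate number was seen: same-numbered libraries correlated at -0.30 to 0.21 in their deviations from the fit of group and sex, and 0 of 12 correlated best with their own number. Whether same-numbered libraries shared a cage or a day is not stated. The replicate block changed no call of a member. Depth limits Ebi3, Gpr83, Lrrc32, Klrg1 and Nrp1 most, with as few as 4, 6, 9, 14 and 27 reads in a library, and intervals of such counts cover counting error only.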

Other observations

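Within SPF groups some members separated by the sex letter of the titles, in different directions. In SPF isotype, Il1rl1 stood at 5.93 to 6.36 TPM in the 3 female libraries and at 3.02 to 3.67 TPM in the 3 male ones, and Lrrc32 at 1.44 to 1.82 and 2.68 to 6.20 TPM. After aCD3 neither gene separated (Il1rl1 4.06 to 7.66 and 4.66 to 7.03 TPM). Instead Gpr83 stood at 4.12 to 5.51 TPM in females and at 2.78 to 2.97 TPM in males of SPF aCD3, and Ebi3 at 3.52 to 4.85 and 0.675 to 3.41 TPM. In the other direction, Ikzf2 stood at 7.85 to 9.09 TPM in females and 10.5 to 17.8 TPM in males of SPF aCD3, and Nrp1 at 0.353 to 0.431 and 0.470 to 0.581 TPM. Over all 12182 tested genes the females lay above the males without overlap for 3.60% in SPF isotype and 13.4% in SPF aCD3, and below them for 11.6% and 8.04%. An exact permutation test of 3 against 3 libraries cannot go below p = 0.10, so no test is given. Sex was a term in the main fit.

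None of the 36 sets of values (9 members in 4 groups) held a library that stood apart from its group by Dixon's criterion.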
